A study of Rattus norvegicus with 6 samples.

Results

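The genes described here are a list of 10 macrophage genes read in the trigeminal nerve of rats. They are C1qa and C1qb, Fcer1g and Tyrobp, Aif1, Itgam, Cd14, Cd163, Lgals3 and Cd68. Members were taken as the probes whose platform gene symbol is one of these names. Of the 10 genes 9 had a probe, 1 each, out of 21791 probes on the array, and Cd68 had none under that symbol and was not analysed here. All 9 passed the filter on dim probes, which asked for detection (p under 0.01) by 2 or more of the 6 arrays, and so were among 10484 probes tested. The congenic strain BDIX.BDIV-Mss4a, called congenic here, carries a BDIV segment on the BDIX background. It was set against its parental strains BDIV and BDIX. BDIX rats develop tumours of this nerve after exposure to ethylnitrosourea and BDIV rats resist them. All rats used here were untreated and 85 days old. For each strain 1 male and 1 female RNA pool was hybridised, each to 1 Illumina rat expression array, so there were 2 arrays per strain and 3 per sex. The number of rats in a pool is unknown here, and no array repeats a pool.

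Macrophages are resident cells of the healthy peripheral nerve, where they lie between the fibres and along vessels, take up debris and sample their surroundings for microbial and tissue signals. After nerve injury or during tumour growth their number and state change, and they are a main source of complement C1q in tissue. The genes listed cover several of their tools: a secreted pattern recognition complex, adaptors that pass receptor signals on, a cytoskeletal marker, an integrin, scavenger and lipopolysaccharide receptors, and a sugar-binding lectin. Several are not made by macrophages alone. Fcer1g, Tyrobp, Itgam and Cd14 are also used by neutrophils, and Lgals3 is also made by Schwann cells and sensory neurons.

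C1qa and C1qb, the C1q chain genes of the list, lie beside C1qc on chromosome 5 as 3 adjacent genes of the reference. Both had their extreme levels in the BDIX pools, so the promoters of both are shown. Each sequence is the 250 bases before the gene's start on the minus strand, read 5′ to 3′ from RefSeq for the GRCr8 assembly. Capitals mark GAGGAA on either strand, a form of the site bound by the myeloid factor PU.1. Other forms of that site were not searched for.

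C1qa, chr5:154419934-154420183: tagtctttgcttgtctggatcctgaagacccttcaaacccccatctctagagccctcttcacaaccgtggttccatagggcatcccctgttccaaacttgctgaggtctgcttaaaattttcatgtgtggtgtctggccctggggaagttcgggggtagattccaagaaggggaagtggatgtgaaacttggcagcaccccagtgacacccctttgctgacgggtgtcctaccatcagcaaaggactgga

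C1qb, chr5:154407828-154408077: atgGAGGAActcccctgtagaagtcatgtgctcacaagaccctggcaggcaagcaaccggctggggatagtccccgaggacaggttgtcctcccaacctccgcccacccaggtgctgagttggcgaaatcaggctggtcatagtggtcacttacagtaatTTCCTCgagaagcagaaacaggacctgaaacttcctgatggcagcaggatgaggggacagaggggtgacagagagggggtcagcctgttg

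The C1qb window held GAGGAA at 247 bases before the start and its reverse complement at 90 bases, and the C1qa window held neither. Of the 9 genes with a probe, 5 were matched to the promoter table. The Itgam window held the motif at 151 and, reversed, at 39 bases before its start, the Cd14 window at 140 and 105 bases, and the Cd163 window nowhere. That is 3 of 5 windows, where 23.2% of 27457 promoters of the same length held it. A match of these letters, or its absence, describes the sequence only, and a window without them can hold another form of the site.

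The arrays held nerve RNA by their markers. Of 7 Schwann cell genes with a probe 6 to 7 were detected on every array, and of 9 sensory neuron genes 7. The congenic arrays had a higher background, with means of 84.6 and 80.6 against 57.9 to 66.3 on the other arrays. Their 75th percentile of signal was 2.59 and 2.65 times that background, against 5.34 to 6.48 times on the others. Of their probes 40.4% and 41.1% were detected, against 44.8% to 47.3% on the other arrays. Every comparison with congenic rats includes this difference between arrays. Of the 9 macrophage probes 7 to 9 were detected on each array. Male and female pools differed across all tested probes with an SD of 0.47 in congenic, 0.22 in BDIV and 0.52 in BDIX rats, on the log2 scale, so the spread in the fits comes mostly from the congenic and BDIX pairs. No scan or hybridisation batch is labelled, so batch and strain cannot be told apart.

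The complement genes C1qa and C1qb, the receptor adaptor Fcer1g and the macrophage marker Aif1 had their highest level in the BDIX male pool and their lowest in the BDIX female pool. The congenic and BDIV pools lay between these. Levels are log2 of the background-corrected, quantile-normalised intensity of 1 probe, and are compared between arrays and never between genes. In these pools of whole nerve, fewer cells of a type and less RNA per cell cannot be told apart.

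C1qa codes for the A chain of C1q, which starts the classical complement pathway and tags debris for uptake. Its level was 8.22 in the congenic male and 8.45 in the congenic female pool, 8.85 and 9.08 in the BDIV male and female pools, and 9.49 and 7.88 in the BDIX male and female pools. The BDIX pair enclosed all the other pools. The congenic pools lay below the BDIV pools. That difference did not pass the test (limma, adjusted p = 0.286), where 36.9% of all probes did. C1qb, the gene of the B chain, read 9.78 and 9.98 in the congenic male and female pools, 9.81 and 9.87 in BDIV, and 10.14 and 8.61 in BDIX. Here 5 of 6 pools lay close together and the BDIX female pool stood 1.17 below the nearest of them. The male over female difference in BDIX was 1.62 for C1qa, or 3.06-fold, and 1.53 for C1qb, or 2.88-fold. In the congenic and BDIV pairs the difference was between -0.24 and -0.06 for both genes.

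Fcer1g codes for the common gamma chain, which passes on signals of Fc receptors. Its level was 11.18 and 11.25 in the congenic male and female pools, 10.36 in each BDIV pool, and 11.54 and 9.90 in the BDIX male and female pools. The BDIX pools lay on either side of all the others. The congenic pools lay above the BDIV pools. That difference did not pass the test (limma, adjusted p = 0.126), where 36.9% of all probes did. Tyrobp codes for DAP12, the adaptor of Trem2 and other activating receptors. It read 6.89 and 5.54 in the congenic male and female pools, 6.27 and 6.43 in BDIV, and 6.95 and 5.33 in BDIX. The female pools of congenic and BDIX rats were not above background for Tyrobp, with detection p of 0.04 and 0.0158. As read, the male pool was thus at least 2.55-fold brighter in congenic and at least 3.06-fold brighter in BDIX rats. These folds leave out the noise of an array, and the true ones can be smaller. For C1qa, C1qb and Fcer1g the male pool was not the brighter one in congenic rats.

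Aif1 codes for the actin-binding protein Iba1, by which macrophages and microglia are often stained. Its level was 11.14 and 11.49 in the congenic male and female pools, 11.14 and 10.95 in BDIV, and 11.65 and 9.81 in BDIX. The BDIX female pool stood 1.13 below its nearest neighbour, and the other 5 pools spanned less than that. In BDIX the male pool was 3.56-fold above the female pool, and 0.248% of all tested probes had a difference at least as high in that pair.

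**Figure D1:**
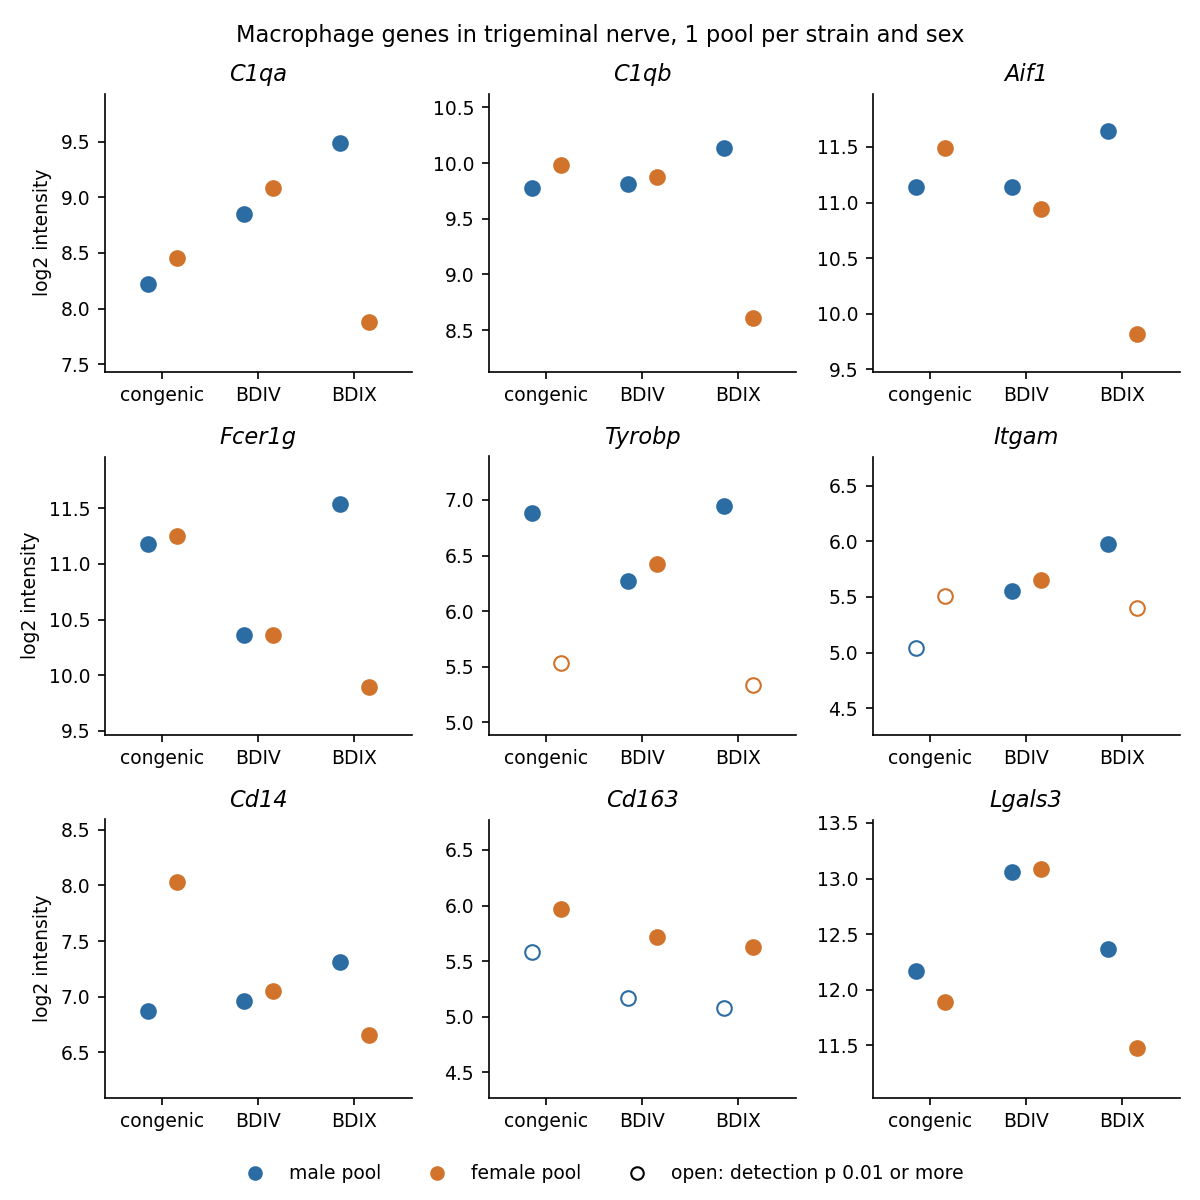
Log2 intensity of the 9 macrophage genes with a probe, 1 panel per gene with its own axis, for the congenic, BDIV and BDIX strains, with male pools in blue and female pools in orange. Each point is 1 pool on 1 array, and open points have a detection p of 0.01 or more. In the panels of C1qa, C1qb, Aif1, Fcer1g and Tyrobp the BDIX male pool is the highest and the BDIX female pool the lowest.

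The surface receptors of the list followed this order in part. Cd14, the co-receptor that hands lipopolysaccharide to Toll-like receptors, read 6.87 and 8.03 in the congenic male and female pools, 6.96 and 7.05 in BDIV, and 7.31 and 6.66 in BDIX. Its highest pool was the congenic female one, 0.72 above the BDIX male pool. Itgam, the alpha chain of the complement receptor CR3, read 5.04 and 5.51 in congenic, 5.56 and 5.66 in BDIV, and 5.98 and 5.40 in BDIX rats, male before female. It was not above background in the BDIX female pool or in either congenic pool, where its signals of 94.3 and 97.4 stood beside background means of 84.6 and 80.6. None of its strain differences passed the test (limma, adjusted p from 0.361 to 0.862).

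Cd163, the scavenger receptor for haemoglobin bound to haptoglobin and a marker of tissue-resident macrophages, ran the other way. Its level was 5.58 and 5.97 in the congenic male and female pools, 5.17 and 5.72 in BDIV, and 5.08 and 5.63 in BDIX. It was above background in the female pool of every strain and in no male pool. It thus passed the filter on dim probes by its female arrays alone. The order of the sexes is described here and lends no support to a difference. All 3 female pools lay above all 3 male pools, and the female pools were at least 1.41-fold brighter on average. Over all tested probes, 0.849% had every female pool above every male pool.

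Lgals3 codes for galectin-3, a lectin that binds sugars on the surface of cells and that macrophages release. It read 12.17 and 11.89 in the congenic male and female pools, 13.06 and 13.09 in BDIV, and 12.37 and 11.47 in BDIX. The BDIV pools lay above all the others, by 0.69 over the next one, and differed little between the sexes. It shared with the genes above a BDIX male pool that was brighter than the BDIX female pool, by 1.86-fold.

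The strain comparisons ask how the nerve of resistant and congenic rats differs from that of susceptible rats before any carcinogen. Lgals3 was the 1 member that passed the test in either comparison with BDIV. It was 1.15 ± 0.24 higher in BDIV than in BDIX (log2 ± SE, 2 arrays per strain, 2.22-fold, limma with Benjamini-Hochberg adjustment over all tested probes, adjusted p = 0.0159). It was lower in congenic than in BDIV rats, by -1.04 ± 0.24 (limma, adjusted p = 0.0166), and between congenic and BDIX rats its difference was 0.11 ± 0.24 (limma, adjusted p = 0.775). In BDIV against BDIX, 1 of 9 members was called, higher, where 27.2% of all probes were called and 13.6% called higher. In congenic against BDIV it was 1 of 9, lower, where 36.9% of probes were called and 18.8% called lower, and in congenic against BDIX 0 of 9 where 11.9% were, with 0 of 9 also at an unadjusted p under 0.05. None of these counts exceeds the share over all probes. Genes of sensory neurons, which also make Lgals3, moved in the same comparisons. Of 7 tested, 6 were called higher in BDIV than in BDIX with a median of 1.14, 5 were called lower in congenic than in BDIV rats with a median of -0.89, and 0 were called in congenic against BDIX. Their part in the Lgals3 differences was not tested.

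The call of Lgals3 in BDIV against BDIX was lost without the BDIV female array, at 0.84 (limma, adjusted p = 0.176). That in congenic against BDIV was lost without the congenic male (limma, adjusted p = 0.0948), the congenic female (0.0611) or the BDIV female array (0.177). Without the congenic male array Cd14 (1.17, limma adjusted p = 0.032) and Fcer1g (1.30, limma adjusted p = 0.041) were called higher in congenic than in BDIV rats instead, where 24.4% of all probes were called. Starting from the authors' processed values, the differences were 1.22 in BDIV against BDIX (limma, adjusted p = 0.0549) and -0.83 in congenic against BDIV (limma, adjusted p = 0.103), and neither was called. With those values quantile normalised they were 1.17 (limma, adjusted p = 0.0231) and -1.06 (limma, adjusted p = 0.0228), and both were.

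For the other members the fit gave wide intervals. Their median SE in a strain comparison was 0.40, against 0.23 over all probes. In this model a difference between the sexes that is not the same in every strain counts as spread. So does any other difference between pools, and with 1 pool of each kind these cannot be told apart. C1qa in congenic against BDIV had a difference of -0.63 with a 95% interval of -1.66 to 0.40, and Fcer1g one of 0.86 with an interval of -0.08 to 1.79 (limma, adjusted p = 0.126). In congenic against BDIX the interval of Aif1 ran from -0.48 to 1.65 and that of C1qb from -0.43 to 1.44. Each of these intervals includes 0. Over the 9 members the median difference was 0.42 in congenic against BDIX, 0.04 in congenic against BDIV and 0.21 in BDIV against BDIX, where the medians over all probes were 0.00, -0.02 and -0.03.

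**Figure D2:**
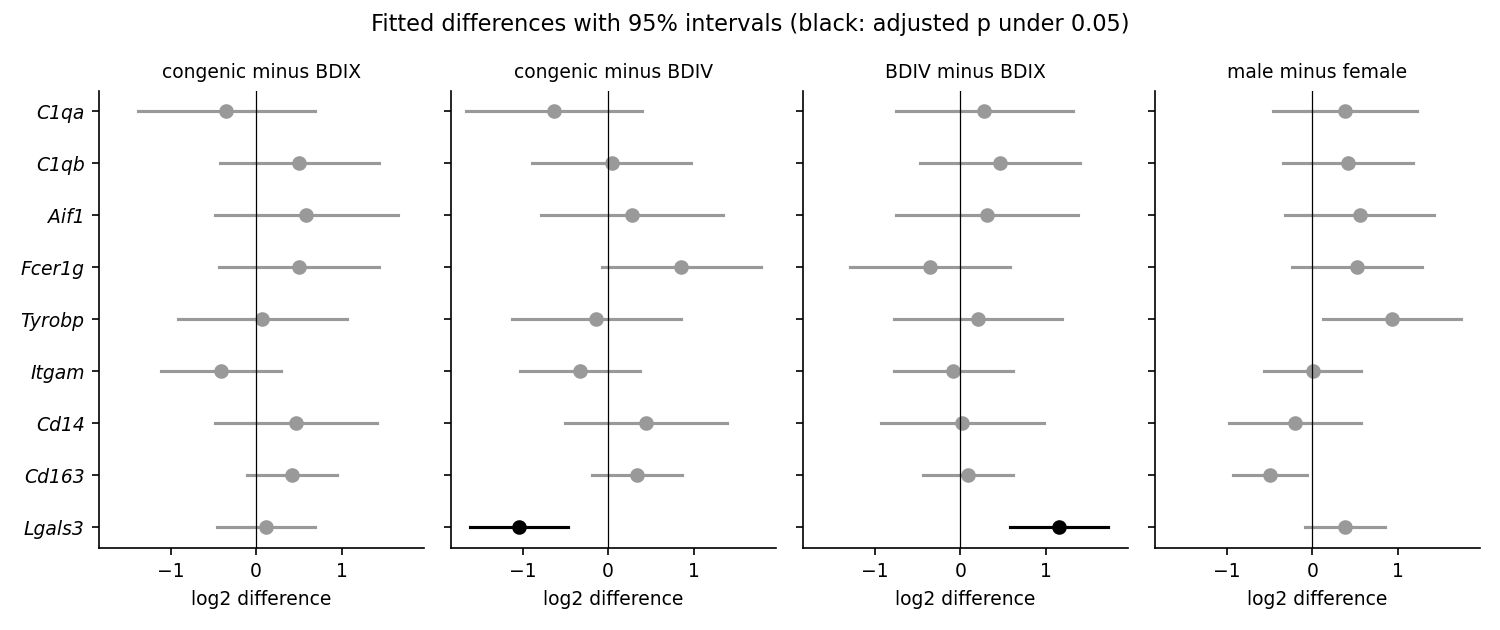
Fitted log2 differences of the 9 members with 95% intervals for congenic minus BDIX, congenic minus BDIV, BDIV minus BDIX and male minus female, from the limma model with strain and sex on 6 arrays. Black marks an adjusted p under 0.05, reached by Lgals3 at -1.04 in congenic minus BDIV and at 1.15 in BDIV minus BDIX, and grey marks the rest.

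Other members were called when a BDIX array was left out, and more of all probes were too. Without the BDIX male array, 5 members were called in BDIV against BDIX, all higher, with Aif1 at 1.27 (limma, adjusted p = 0.00193), C1qa at 1.21, C1qb at 1.30, Fcer1g at 0.48 and Lgals3 at 1.52, where 40.6% of all probes were called. Without the BDIX female array, 4 were called, and Aif1 (-0.66), C1qa (-0.65) and Fcer1g (-1.21) were then lower in BDIV while Lgals3 (0.79) stayed higher, where 30.1% of all probes were called. In congenic against BDIX, 4 members were called higher without the BDIX male array, namely Aif1 at 1.54, C1qb at 1.34, Fcer1g at 1.34 and Lgals3 at 0.50, and 1 was called lower without the BDIX female array, C1qa at -1.29 (limma, adjusted p = 0.00364). Of all probes 28.5% and 20.2% were called in these fits. In congenic against BDIV, 3 members (C1qa, Fcer1g and Lgals3) were called without either BDIX array, where 54.1% of all probes were called without the male and 55.1% without the female array. In these fits the lone array of a strain is assumed to vary like the other strains.

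Set side by side within a sex, the pools differed in the same way. These differences have 1 pool on each side and no test. Among females the congenic pool lay above the BDIX pool for 9 of 9 members, with a median of 0.58 and 4 differences over 1 (Aif1, C1qb, Cd14 and Fcer1g), where 5.83% of all probes exceeded 1. With median scaling in place of quantile normalisation, which moved all probes by a median of -0.48 in that pair, it was 6 of 9. The median was then 0.09, with 1 difference over 1. Among females the BDIV pool also lay above the BDIX pool for 9 of 9 members, with a median of 1.09 and 5 differences over 1, where 12.8% of probes exceeded 1. Among males the congenic pool lay below the BDIX pool for 8 of 9 members, with a median of -0.36. The BDIV male pool lay below it for 7 of 9, with a median of -0.42. The comparisons with BDIX share its pools, so these counts are not independent of each other.

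The comparison of males with females asks whether the sexes differ in the untreated nerve. No member passed the test for sex across strains, and neither did any other probe (0% called by limma). At an unadjusted p under 0.05 there were 2 members and 316 probes in all. These members were Tyrobp, with 0.94 ± 0.34 (log2 ± SE, 3 arrays per sex, higher in males in 2 of 3 strains), and Cd163, with -0.50 ± 0.18 (lower in males in 3 of 3 strains). Both had a limma adjusted p of 0.959. Since Cd163 passed the filter on dim probes by its female arrays alone, its direction here lends no support to a difference.

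Within BDIX the male pool lay above the female pool for 8 of 9 members, where it did for 46.2% of all probes. The exception was Cd163 at -0.55. Of the 9 members, 5 differed by more than 1 (Aif1, Fcer1g, C1qa, Tyrobp and C1qb), where 4.4% of all probes did. The median over the members was 1.53, and over all probes -0.04. In the congenic pair 7 of 9 members were lower in the male pool, with a median of -0.24. Its extremes were Tyrobp at 1.35, 1 of 9 members over 1 where 1.97% of probes were, and Cd14 at -1.16, 1 of 9 under -1 where 2.04% of probes were. Tyrobp did not exceed 1 there with median scaling, cyclic loess, no background correction or an offset of 50, and Cd14 did not pass -1 with no background correction or an offset of 50. In the BDIV pair all members lay between -0.55 and 0.19, with 0 of 9 over 1, where 0.0858% of all probes were. Whether the effect of sex differs between strains cannot be tested with 1 pool of each kind. The count over 1 in BDIX was 4 to 6 under every other background correction, scaling and filter tried, all of them added after the data were seen.

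**Figure D3:**
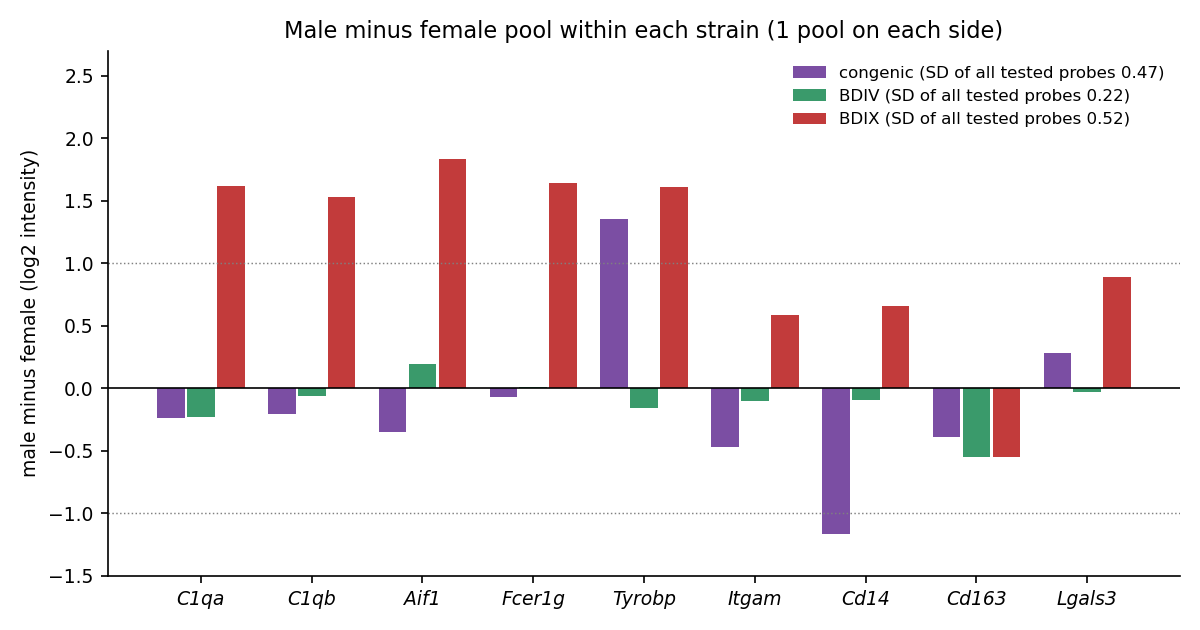
Male minus female difference in log2 intensity for each of the 9 members in the congenic, BDIV and BDIX strains, with 1 pool on each side and dotted lines at 1 and -1. The BDIX bars lie above 1 for 5 genes and reach 1.83 for Aif1, the BDIV bars lie between -0.55 and 0.19, and among the congenic bars Tyrobp reaches 1.35 and Cd14 -1.16.

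Over the 6 arrays the BDIX female pool was the lowest for 7 of 9 members, where it was the lowest for 19.6% of all probes. The BDIX male pool was the highest for 6 of 9, where it was the highest for 12.3% of all probes. Both held for 5 members, and for 2.24% of probes. Of the 40 steps between neighbouring levels of a member with at least 1 of the pools above background, 9 exceeded the residual SD of that member's fit, so most neighbours in these orders cannot be told apart. The steps that did include the one between the BDIX female pool and the next for Aif1, C1qb and Lgals3.

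The members' profiles were alike to different degrees. Over the 6 arrays, which all pairs share, Pearson's r was 0.97 for Aif1 with C1qb, 0.86 for Aif1 with Fcer1g, 0.83 for Itgam with C1qa and 0.75 for C1qa with C1qb. Against the mean of the other members, C1qb (0.96) and Aif1 (0.92) stood nearest, C1qa had 0.77 and Fcer1g 0.65, and Tyrobp, Itgam and Lgals3 had 0.46, 0.42 and 0.40. Cd163 had -0.36. These values describe 6 points, 2 of which are the BDIX pools that set most of the range.

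Outside the list, the 5 named genes with profiles most like the members' mean were Ccs (r = 0.99), Fam50a (0.99), Dnph1 (0.98), Rpp21 (0.98) and Rab13 (0.98). In BDIX they differed between the male and female pools by 0.41 for Fam50a and up to 1.36 for Rpp21. Of 10475 other probes, 93 had an r of at least 0.9 with this profile.

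A wider list of 48 macrophage and myeloid genes, of which 39 had a probe and 27 were tested, was described beside the members. It was drawn up with earlier results of these data known, as were the other lists below. Its differences between BDIX males and females had a median of 0.51. In the male pool 21 of 27 genes were higher, where 46.2% of all probes were, and 6 were over 1, where 4.4% of all probes were. The 6 genes over 1, named after their values were seen, were Fcgr3a, an Fc receptor that signals through Fcer1g (2.0), C1qc, the third C1q chain (1.63), Trem2, a lipid receptor that signals through Tyrobp (1.43), Cyba and Ncf1 of the NADPH oxidase (1.30 and 1.17) and the protease Ctss (1.21). C1qc read 9.49 in the congenic male pool, 9.36 and 9.44 in the BDIV male and female pools, and 9.69 and 8.05 in the BDIX male and female pools. Its BDIX female pool was thus the lowest, as for C1qa and C1qb, while its highest pool was the congenic female one. Ptprc, the pan-leukocyte gene of CD45, did not follow them, with 6.0 in the BDIX male and 6.20 in the BDIX female pool.

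In the strain comparisons few of these 27 genes passed the test. Ccr1, a chemokine receptor, was higher in BDIV than in BDIX by 1.17 ± 0.27 (limma, adjusted p = 0.0213), and Laptm5, a lysosomal membrane protein of blood cells, was lower by -2.05 ± 0.19 (limma, adjusted p = 0.00243). Slc11a1, the metal transporter of the phagosome, was higher in congenic than in BDIX rats by 1.09 ± 0.23 (limma, adjusted p = 0.0328) and higher than in BDIV by 1.57 ± 0.23 (limma, adjusted p = 0.00387). Of the 27, 2 were called in BDIV against BDIX, where 27.2% of all probes were, and 1 in congenic against BDIX, where 11.9% were. In congenic against BDIV, 4 of the 27 were higher and 2 lower, where 36.9% were called. Ccr1 lost its call without either BDIV array (limma, adjusted p up to 0.15), and Slc11a1 lost that against BDIX without the congenic female array (0.0893), with median scaling (0.163), from the authors' processed values (0.0519) or without the filter on dim probes (0.0645).

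Genes of the lysosome and of uptake are used by macrophages and by many other cells. Over 19 such genes the male minus female median in BDIX was 0.03, with 0 over 1, where 4.4% of all probes were. In BDIV against BDIX, 2 were higher and 5 lower, where 27.2% of all probes were called. Among them were Psap, the precursor of the saposins (1.06 ± 0.20, limma adjusted p = 0.0118), and Gusb, a lysosomal glucuronidase (-1.32 ± 0.19, limma adjusted p = 0.00531). In congenic against BDIX, Ctsd, the protease cathepsin D (-0.91 ± 0.19, limma adjusted p = 0.0298), and Apoe, the lipid carrier (-0.87 ± 0.23, limma adjusted p = 0.0496), were lower and none was higher, 2 of 19 where 11.9% of all probes were called. Ctsd lost this call without either congenic array, Apoe lost it in 10 of 17 other settings, and Psap lost its own without the BDIV female array (limma, adjusted p = 0.143).

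Of 11 tested genes for macrophage growth factors and chemokines, 11 were higher in the BDIX male than in the BDIX female pool. Of all probes 46.2% were, and the median of the 11 was 0.59. In BDIV against BDIX, Cx3cl1, the membrane-bound chemokine fractalkine, was higher (1.20 ± 0.33, limma adjusted p = 0.036), and the chemokines Ccl7 (-1.48 ± 0.24, limma adjusted p = 0.00772) and Cxcl12 (-1.03 ± 0.25, limma adjusted p = 0.0245) were lower, 3 of 11 where 27.2% of all probes were called. None of the 11 was called in congenic against BDIX. Without the BDIV female array none of these 3 was called (limma, adjusted p from 0.0565), and Cxcl12 was not called without the BDIV male array (0.0754) or Cx3cl1 without the BDIX female array (0.0624). Neither was called from the authors' processed values (limma, adjusted p = 0.0661 for Cxcl12 and 0.0839 for Cx3cl1), nor Cx3cl1 without the filter on dim probes (0.0544). Of 9 genes of Toll-like receptor signalling, the partners of Cd14, the adaptor Myd88 and the NF-κB subunits Nfkb1 and Rela were lower in BDIV than in BDIX, by -0.80 to -1.38, 3 of 9 where 27.2% of all probes were called, and none was called in congenic against BDIX. Without the BDIV female array these 3 calls were lost too (limma, adjusted p from 0.0589). Without the BDIV male array Myd88 (limma, adjusted p = 0.175) and Nfkb1 (0.191) were lost, as was Myd88 without the BDIX male (0.0863) and Nfkb1 without the BDIX female array (0.165). Both were also lost from the authors' processed values (limma, adjusted p = 0.0574 for Myd88 and 0.0629 for Nfkb1) and without the filter (0.0792 and 0.143). Their male minus female median in BDIX was -0.04.

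Genes of MHC class II code for the molecules that present peptides on macrophages and other antigen-presenting cells. Of 6 tested, 6 were also higher in the BDIX male pool, where 46.2% of all probes were. Their median was 1.15, and 5 were over 1, where 4.4% of all probes were. In the congenic and BDIV pairs their medians were -0.20 and -0.24. Between strains RT1-Da, a class II alpha chain, was higher in congenic than in BDIV rats by 1.52 ± 0.33 (limma, adjusted p = 0.0125, 0.0602 without the congenic female array and 0.0642 with median scaling), and no other strain difference of the 6 passed. Class II and other polymorphic genes can differ in sequence between strains, and a difference under a probe cannot be told apart from one in transcript level.

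Among the other galectins, which share the sugar-binding fold of Lgals3, Lgals5 was lower in BDIV than in BDIX by -3.87 ± 0.23 (limma, adjusted p = 0.000627) and higher in congenic than in BDIV rats by 3.33 ± 0.23 (limma, adjusted p = 0.000638), so it ran opposite to Lgals3. Lgals8 was lower in congenic than in BDIV rats by -0.84 ± 0.19 (limma, adjusted p = 0.0138). Lgals2 was not above background in BDIV and was, as read, at least 1.84-fold brighter in congenic rats (limma, adjusted p = 0.0435). Lgals8 lost its call without any 1 of the 4 congenic and BDIV arrays and Lgals2 in 9 of 16 other settings, while Lgals5 kept both calls in all 17.

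Markers of other cells moved with some of these differences. Of 9 tested neutrophil genes 7 were over 1 in BDIX males against females, where 4.4% of all probes were, with a median of 1.54. Their summed linear level was 9006 in the BDIX male and 1556 in the BDIX female pool. In the congenic pair 9 of 9 were over 1, where 1.97% of all probes were, with a median of 3.91. The sums there were 9080 in the male and 464 in the female pool. In BDIV the sums were 350 and 338, and 1 to 2 of 11 neutrophil probes were detected. Of these 11, 9 were detected in each of the congenic and BDIX male pools, 8 in the BDIX female and 2 in the congenic female pool. The tested genes thus passed the filter mostly through pools where they are high, and their counts lend no support to a difference. Neutrophil sums were thus alike in the congenic and BDIX male pools. C1qa, C1qb, Aif1 and Fcer1g were not higher in the congenic male than in the congenic female pool, with 1 pool on each side. Tyrobp was higher in the male pool in the congenic and BDIX pairs, and was not above background in either female pool. The part of neutrophil transcripts in the differences of any of these genes, Tyrobp included, was not tested.

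The summed linear level of the 9 macrophage genes was 10692 and 10903 in the congenic male and female pools, 13763 and 13790 in BDIV, and 13684 and 5557 in BDIX. Without Lgals3 the sum of the other 8 was 6074 and 7104 in congenic, 5218 and 5086 in BDIV, and 8401 and 2712 in BDIX. Most of this second sum came from Aif1 and Fcer1g in every pool. They had 3205 and 2970 in the BDIX male and 900 and 952 in the BDIX female pool. Genes of the nerve's other cells are given beside these. In BDIX their male minus female median was -0.22 for 7 Schwann cell, -0.01 for 8 fibroblast, -0.14 for 5 endothelial and -0.11 for 7 sensory neuron genes. Summed Schwann cell levels were 63168 in the BDIX male and 85003 in the BDIX female pool. Between strains some genes of these lists were called too. Called lower in BDIV than in BDIX were 3 of 7 Schwann cell, 6 of 8 fibroblast and 3 of 5 endothelial genes. Their medians were -0.96, -1.07 and -0.88, and 27.2% of all probes were called. In congenic against BDIV, 3 Schwann cell, 4 fibroblast and 4 endothelial genes were called higher and 1 fibroblast gene lower. The medians were 0.51, 0.52 and 1.12, and 36.9% of all probes were called. Congenic against BDIX had 1 Schwann cell and 2 fibroblast genes called lower and 1 fibroblast and 1 endothelial gene higher. Of all probes 11.9% were called there. Counts near these shares do not set a list apart from the other probes. Their part in the members' differences was not tested. Of 10 mast cell probes 0 were detected in the congenic, 3 to 5 in the BDIV and 1 to 2 in the BDIX pools. The 3 tested were at background in the congenic pools and passed the filter through other pools, Cpa3 through the BDIV pools alone. They were called lower in congenic than in BDIV rats, where 18.8% of all probes were called lower. The filter favours this direction, so these calls lend no support to a difference. As read, BDIV pools were at least 1.24-fold brighter for Cpa3, 2.53-fold for Kit and 2.64-fold for Cma1. Kit was also called lower in congenic than in BDIX rats, where 11.9% of all probes were called.

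**Figure D4:**
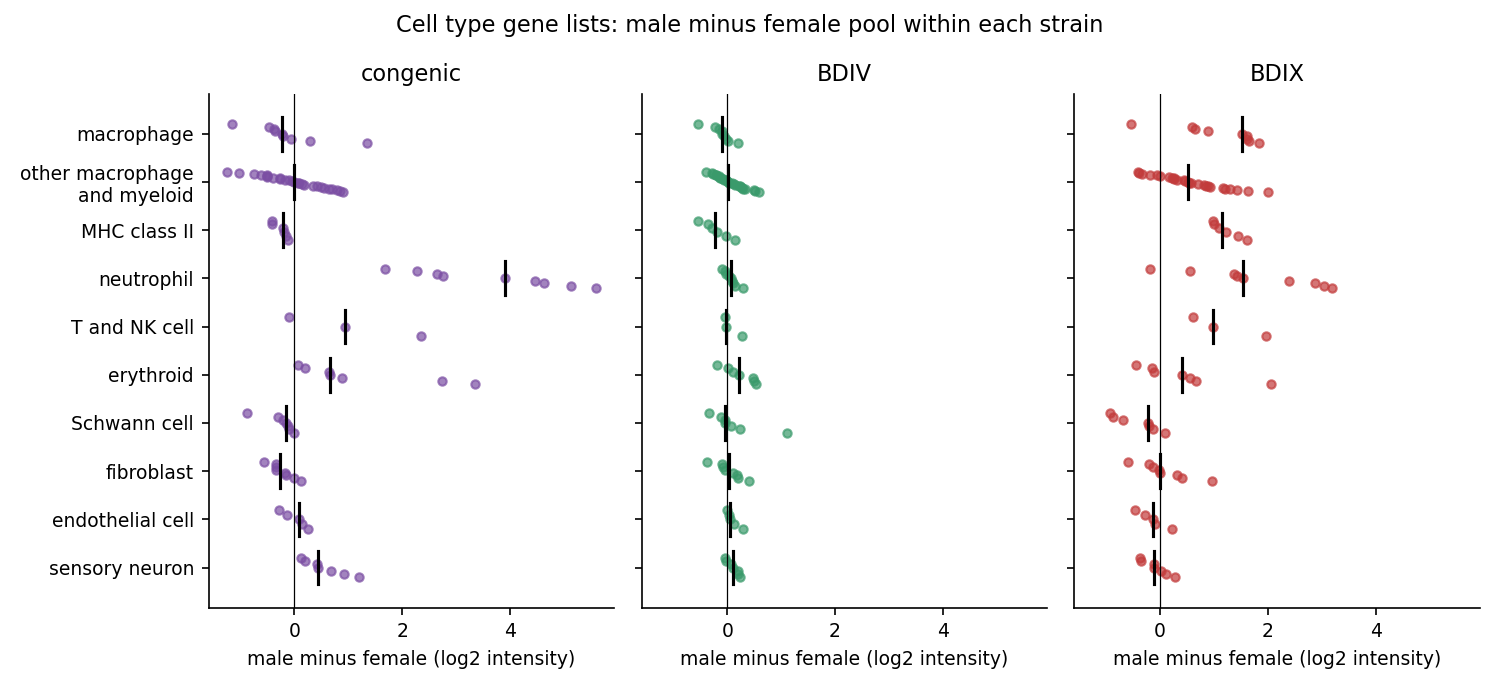
Male minus female difference in log2 intensity for the genes of 10 cell type lists in congenic, BDIV and BDIX rats, with 1 point per tested gene and a black bar at the list's median. In BDIX the medians are 1.53 for the macrophage, 1.15 for the MHC class II, 1.54 for the neutrophil and 0.99 for the T and NK cell genes. In congenic rats they are -0.24, -0.20, 3.91 and 0.94. Medians of the Schwann cell, fibroblast, endothelial and neuron lists lie between -0.22 and -0.01 in BDIX. Their single genes run from -0.92 for Egr2 to 0.97 for Col1a1.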

How the data were processed

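Trigeminal nerve RNA of 6 pools was read on 6 Illumina rat arrays. Per the file headers, the authors gave each probe a signal intensity and a detection p-value on every array, and they also deposited processed intensity values, which rise linearly with the signal within an array and served as an alternative. The submitters' processing notes name BeadStudio 3.0. Steps in the deposited detection p-value correspond to 825 negative controls. Of 21791 probes, 242 were left out because the tables gave their values in swapped order. Background was corrected with a normal-exponential model whose mean and SD came from the detection p, 16 was added as an offset, and log2 values followed quantile normalisation (limma 3.58.1, R 4.3.3). A probe not above background on all arrays of a group has only a bound. Its fold is given as at least the mean of the brighter group over that of the dimmer one. For this each dim array counts at its own value or the lowest detected value, whichever is higher. Such a bound takes the values as read and leaves out the noise of an array, so the true fold can be smaller.

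Probes detected (p under 0.01) by 2 or more of the 6 arrays were tested. A limma model with strain and sex on 6 arrays left 2 residual degrees of freedom, and moderation with an intensity trend added 5.23. Calls are a Benjamini-Hochberg adjusted p under 0.05 over 10484 probes, and the steps were tested on simulated data. Nothing says how the pools were made up, so p-values measure only the spread between these pools. The number of arrays limits the precision. Gene symbols came from the platform annotation, 13387 probes with 1 and 8404 with none, and 13349 were matched by gene number to RefSeq. All members are described. Of each further list, up to 3 genes with the smallest p in BDIV against BDIX and up to 3 in congenic against BDIX were named, plus the 5 profiles most like the members' mean, and other genes were named after their values were seen. The members and lists were chosen with earlier results of these data known. Alternatives for named genes of the further lists and for pairs of pools were added after the data were seen.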

Additional observations from a re-analysis of the deposited data

Results flagged for a closer look

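For several members the male minus female difference had one sign in one strain and the opposite sign in another, with a gap over 1 on the log2 scale. With 1 pool on each side these differences between strains were not tested. Between the congenic and the BDIX pair, the male minus female difference of Aif1 was lower in congenic rats by -2.18 (-0.35 in congenic, 1.83 in BDIX). In the same way that of C1qa was lower by -1.85, of Cd14 by -1.82, of C1qb by -1.73, of Fcer1g by -1.71 and of Itgam by -1.05, where the congenic pools and the BDIX female pool had Itgam at background. Between the BDIV and the BDIX pair, C1qa was lower by -1.85, Tyrobp by -1.77 and C1qb by -1.59. Between the congenic and the BDIV pair, Tyrobp differed by 1.51, being brighter in the congenic male than in the congenic female pool and slightly dimmer in the BDIV male than in the BDIV female pool. The same BDIX pools enter 9 of these 10 gaps.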

How the results depend on the processing

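Of 600 recomputed member differences, 525 kept their direction and side of the threshold, 53 changed sign, and of those that kept it 16 came to pass the test and 6 no longer did. With 3 of those that changed sign (Fcer1g without the BDIX male, Aif1 and C1qa without the BDIX female array, in BDIV against BDIX), 19 came to pass. The cause was not tested. Counts of members called over the fits that left out 1 array ran from 0 to 5 in BDIV against BDIX, 0 to 4 in congenic against BDIX and 0 to 3 in congenic against BDIV, and stayed at 0 for sex. From the authors' processed values 0 members were called in both comparisons with BDIV, and 1, Lgals3, in each with those values quantile normalised. Median scaling, which moved all probes by -0.48 in congenic against BDIX and -0.61 in congenic against BDIV, gave 2 calls in the second (Lgals3, and C1qa at -1.43). The share of calls that were higher was then 2.98% in place of 36.1% in congenic against BDIX, 9.71% in place of 49% in congenic against BDIV, and 63.3% in place of 50% in BDIV against BDIX. Under median scaling the sign turned in congenic against BDIX for C1qb (-0.13), Cd14 (-0.17), Tyrobp (-0.28), Fcer1g (-0.056) and Lgals3 (-0.36), and in congenic against BDIV for Aif1 (-0.45), C1qb (-0.75) and Cd14 (-0.26). It turned for C1qb in congenic against BDIV under cyclic loess (-0.055), and from the authors' values for Itgam in BDIV against BDIX (0.11) and Tyrobp in congenic against BDIX (-0.0061).

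Differences that changed sign when 1 array was left out ran over these ranges. In BDIV against BDIX they were -0.66 to 1.27 for Aif1, -0.65 to 1.21 for C1qa, -0.37 to 1.30 for C1qb, -1.21 to 0.48 for Fcer1g, -0.61 to 0.99 for Tyrobp, -0.61 to 0.66 for Cd14 and -0.50 to 0.35 for Itgam. In congenic against BDIX they were -0.37 to 1.54 for Aif1, -1.29 to 0.58 for C1qa, -0.33 to 1.34 for C1qb, -0.34 to 1.34 for Fcer1g, -0.43 to 0.58 for Tyrobp, -0.26 to 1.20 for Cd14, -0.82 to 0.023 for Itgam and -0.28 to 0.50 for Lgals3. In congenic against BDIV they were -0.40 to 0.95 for Aif1, -0.43 to 0.51 for C1qb, -0.93 to 0.67 for Tyrobp, -0.29 to 1.17 for Cd14 and -0.73 to 0.027 for Itgam. For sex they were -0.082 to 1.01 for Aif1, -0.24 to 0.69 for C1qa, -0.13 to 0.73 for C1qb, -0.034 to 0.82 for Fcer1g, -0.63 to 0.29 for Cd14 and -0.28 to 0.26 for Itgam.

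Over all probes, leaving out 1 array moved the calls from 2856 to between 573 and 4261 in BDIV against BDIX, from 1245 to between 732 and 2984 in congenic against BDIX, from 3869 to between 1264 and 5775 in congenic against BDIV, and from 0 to between 0 and 20 for sex. In congenic against BDIX there were also 3925 with median scaling, 722 from the authors' values and 656 without the filter. The sex of the pool was the only label shared between strains and was a term of the model. Tyrobp, Itgam and Cd163 lay at background on 2 to 3 arrays, which limits their differences.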

Other observations

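Genes of T and NK cells and of red cell precursors are given as values outside the comparisons. Of 10 T and NK cell genes with a probe 1 to 3 were detected on each array. The 3 tested had a male minus female median of 0.99 in BDIX. Summed linear levels of 7 erythroid genes were 77254 and 64718 in the congenic male and female pools, 20734 and 14660 in BDIV, and 63488 and 69048 in BDIX. In BDIV against BDIX 6 of these 7 were lower, and in congenic against BDIV 7 of 7 were higher (limma, adjusted p under 0.05), where 27.2% and 36.9% of all probes were called.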
